A study of Mus musculus with 4 samples.

Results

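The collagen genes were followed across 4 arrays of mouse colon epithelial isolates. A gene was a member when its symbol in the platform's probe annotation had the form Col, a number, a and a number, and 44 of the 19938 genes with 1 symbol did so. They fell into 11 fibrillar genes, 6 type IV basement membrane genes and 27 others. The other genes comprised 9 FACIT genes (fibril-associated collagens with interrupted triple helices), 6 type VI genes, 3 network-forming genes, 2 multiplexins, 4 transmembrane genes and 3 more (types VII, XXVI and XXVIII).

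The study used C57BL/6 mice aged 6 to 8 weeks, given 1 round of a colitis-associated cancer model in which azoxymethane, a colon carcinogen, is followed by dextran sulfate sodium, which injures the colonic lining. Azoxymethane was given at 10 mg/kg and dextran sulfate sodium at 3.5% in the drinking water for 5 days, and cells were taken on day 12. The genotypes were Bmi1ΔIEC Mel18ΔIEC (DKO), Bmi1ΔIEC (called Bmi1_KO here), Mel18ΔIEC (Mel18_KO) and WT, where ΔIEC marks deletion in intestinal epithelial cells. All 4 genotypes, WT included, received both agents. Bmi1 and Mel18 (symbol Pcgf2) encode related subunits of Polycomb repressive complex 1, which keeps chromatin repressed. There was 1 array for each genotype, so no difference had a replicate check and no test was made. The labels name neither the Cre driver nor the number of mice behind each array. Cells were shaken off opened colons in 5 mM EDTA, and no sort is described. Bmi1 itself differed from WT by 0.40 on DKO and 0.18 on Bmi1_KO, and Pcgf2 by -0.15 on DKO and -0.13 on Mel18_KO, on the log2 scale. Such probe sets can also pick up RNA from exons that a deletion leaves in place, so the values are no check of the labels.

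Collagens are proteins of 3 chains wound into a triple helix. Fibrillar collagens (types I, III and V) form the tensile fibres of connective tissue and are made in the gut mainly by fibroblasts and other mesenchymal cells. Type IV chains form the sheet-like network of basement membranes, under epithelium and around vessels. FACIT collagens sit on fibril surfaces, type VI forms beaded filaments near cells, multiplexins lie in basement membrane zones, and transmembrane types anchor cells.

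Values are log2 of the deposited intensities, and differences are log2 differences between arrays, given as DKO, Bmi1_KO or Mel18_KO minus the array they are set against. A gene was analysed when its mean over the 4 arrays was at least 6, which 11815 genes and 32 of the 44 collagen genes passed. Of these 32, Col5a2 and Col14a1 passed only with the DKO array in the mean. The DKO array stood apart over the analysed genes, and the WT array in a set of seminal vesicle genes. DKO had Pearson correlations of 0.869 to 0.900 with the other arrays over the analysed genes, against 0.976 to 0.984 among the other 3. WT carried transcripts of seminal vesicle, with a summed intensity over 9 such genes of 160 in DKO, 368 in Bmi1_KO, 161 in Mel18_KO and 14520 in WT. Counts on DKO are therefore given against WT and, without the WT array, against the mean of Bmi1_KO and Mel18_KO. Both comparisons contain the DKO array. From contrasts among the 4 arrays, a typical gene's error in a difference of 2 arrays came to 0.40 at most. The pan-epithelial list, such as the adhesion protein Epcam and the keratin Krt8, was well above the floor on every array: 14 of 14 genes reached 6, with Epcam at 12.38 in DKO, 12.05 in Bmi1_KO, 11.99 in Mel18_KO and 12.14 in WT.

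On DKO, a limited set of collagens was higher: both type I chains, type III, the Col5a2 chain of type V, Col4a1 and Col4a2, the Col6a1 and Col6a3 chains of type VI, type XII and both multiplexins. Against WT, 11 of the 32 analysed collagen genes were at least 1.5-fold higher and 0 were at least 1.5-fold lower, where 13.5% of all analysed genes were higher and 20.9% lower. The 11 include Col5a2, which the high DKO value let past the floor. Against the single deletions, 7 were at least 1.5-fold higher and 0 lower, where 13.1% of genes were higher and 19.7% lower. At 2-fold, 1 collagen gene was higher than on WT, against 6.8% of all genes, and 0 were lower, against 8.48%. That gene was Col4a1, just past the threshold of 1 on the log2 scale at 1.002, and the other 10 lay between 1.51-fold (Col6a1) and 1.91-fold (Col4a2). Against the single deletions 0 collagen genes were 2-fold higher or lower, where 6.86% and 6.82% of genes were. The counts at 2-fold are near the share over all genes. The median over the 32 genes was 0.20 against WT and 0.18 against the single deletions, where the median over all analysed genes was -0.07 and -0.08.

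**Figure D1:**
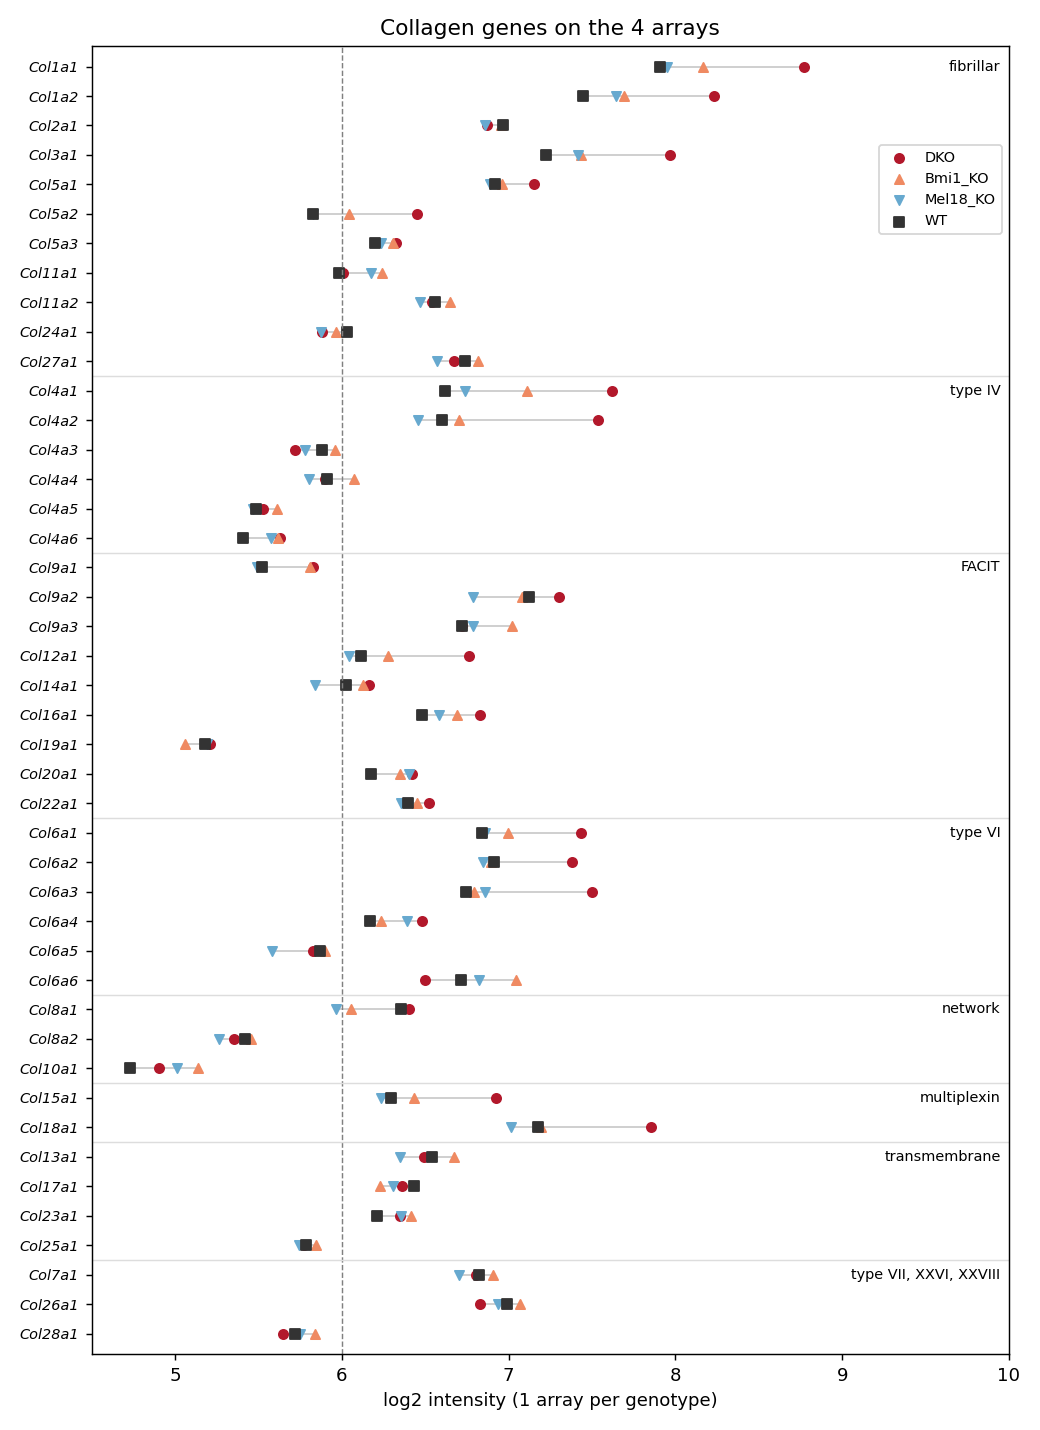
Log2 intensity (horizontal axis) of the 44 collagen genes, grouped by structural class down the page, with 1 point for each of the 4 arrays and a dashed line at the floor of 6. The DKO point lies right of the other 3 for 21 of the 32 analysed genes. Its widest steps are for Col1a1, Col1a2, Col3a1, Col5a2, Col4a1, Col4a2, Col6a1, Col6a2, Col6a3, Col12a1, Col15a1 and Col18a1, while most other genes show 4 points close together.

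Among the fibrillar genes, the chains of types I and III were higher on DKO. Col1a1 (probe set 10380419), the main chain of type I collagen, had log2 intensities of 8.77 in DKO, 8.17 in Bmi1_KO, 7.95 in Mel18_KO and 7.91 in WT. Its partner in the type I molecule, Col1a2 (probe set 10536220), had 8.23 in DKO, 7.69 in Bmi1_KO, 7.64 in Mel18_KO and 7.45 in WT. Col3a1 (probe set 10346015), the single chain of type III collagen, which forms fibrils together with type I, had 7.97 in DKO, 7.43 in Bmi1_KO, 7.42 in Mel18_KO and 7.22 in WT. All 3 had DKO on top and WT at the bottom, with Bmi1_KO second. Col1a1 was 1.82-fold higher than on WT (difference 0.86) and 1.64-fold higher than the single deletions (0.71). Col1a2 differed by 0.79 and 0.57 in the same comparisons, and Col3a1 by 0.74 and 0.54. For these 3 genes the step between DKO and the next array, 0.54 to 0.60, was wider than the whole range of the other 3 arrays, 0.21 to 0.26. In a bulk isolate, more cells of a type and more RNA per cell cannot be told apart.

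Type V collagen, which starts and limits type I fibrils, was uneven. Col5a2 had 6.45 in DKO, 6.04 in Bmi1_KO, 5.83 in Mel18_KO and 5.83 in WT, with 2 arrays under the floor, and was higher than on WT by 0.62 and than the single deletions by 0.51. For Col5a1 the values were 7.15 in DKO, 6.96 in Bmi1_KO, 6.89 in Mel18_KO and 6.92 in WT, a difference from WT of 0.23. Col5a3 gave 6.32 in DKO, 6.31 in Bmi1_KO, 6.23 in Mel18_KO and 6.20 in WT, so its 4 arrays lay close together and its difference from WT was 0.12.

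The remaining analysed fibrillar genes, known chiefly from cartilage, showed no step on DKO. Col2a1, the cartilage fibril chain, stood at 6.87 in DKO, 6.96 in Bmi1_KO, 6.86 in Mel18_KO and 6.96 in WT. Col11a1, a minor fibril chain of cartilage, measured 6.01 in DKO, 6.24 in Bmi1_KO, 6.18 in Mel18_KO and 5.98 in WT, and Col11a2, its partner chain, 6.54 in DKO, 6.65 in Bmi1_KO, 6.47 in Mel18_KO and 6.56 in WT. Intensities of Col27a1, a fibrillar collagen of cartilage, were 6.67 in DKO, 6.82 in Bmi1_KO, 6.57 in Mel18_KO and 6.74 in WT. None of these 4 genes was highest on DKO, and their differences from WT ran between -0.09 and 0.03. Over the 10 analysed fibrillar genes the median difference was 0.18 against WT and 0.14 against the single deletions, with 4 and 1 genes at least 1.5-fold higher. The shares over all analysed genes were 13.5% and 13.1%, so the count against the single deletions is near that share. The 4 include Col5a2, which passed the floor only with the DKO array in the mean.

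Of the 6 type IV genes only Col4a1 and Col4a2 passed the floor, and both were higher on DKO. These chains form the common network of basement membranes in most tissues. Col4a1 (probe set 10576973) had 7.62 in DKO, 7.11 in Bmi1_KO, 6.74 in Mel18_KO and 6.62 in WT. Col4a2 (probe set 10570068) had 7.54 in DKO, 6.70 in Bmi1_KO, 6.46 in Mel18_KO and 6.60 in WT. DKO was highest for both, and Bmi1_KO came second for both. Col4a2 was 1.91-fold above WT (0.94) and 1.94-fold above the single deletions (0.96). Col4a1 was 1.002 above WT and 0.70 above the single deletions, the smaller second value going with Bmi1_KO at 0.49 above WT. Its step to the next array was 0.51, beside a range of 0.49 over the other 3 arrays, and for Col4a2 these were 0.83 and 0.25.

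The other 4 type IV genes encode the chains of more specialised basement membranes such as that of the kidney glomerulus. They had means under the floor and differences from WT between -0.16 (Col4a3) and 0.22 (Col4a6). Over all 6 genes the median difference from WT was 0.13, so the type IV median of 0.97 describes 2 genes.

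Type IV genes lie in head-to-head pairs, and the shared start region of Col4a1 and Col4a2 is shown because these were the members with the largest differences from WT. The RefSeq windows (build GRCm38.p6, 250 bases before to 50 after the start) overlap by 78 bases, on opposite strands. Capitals mark matches, on either strand, to 4 motifs. The TATA box was searched as TATAAA. The CCAAT box was searched by its own letters. GGGCGG stood for the GC box, which Sp1 family factors bind. AP-1 factors bind TGANTCA. The Col4a1 window, on the minus strand at chr8:11312777-11313076, and the Col4a2 window, on the plus strand at chr8:11312555-11312854, read as follows.
Col4a1: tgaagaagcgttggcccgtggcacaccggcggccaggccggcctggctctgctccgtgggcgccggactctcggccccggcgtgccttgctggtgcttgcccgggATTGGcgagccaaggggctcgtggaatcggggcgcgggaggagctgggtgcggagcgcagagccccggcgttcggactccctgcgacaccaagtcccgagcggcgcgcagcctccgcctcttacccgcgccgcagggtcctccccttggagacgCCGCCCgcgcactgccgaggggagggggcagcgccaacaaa
Col4a2: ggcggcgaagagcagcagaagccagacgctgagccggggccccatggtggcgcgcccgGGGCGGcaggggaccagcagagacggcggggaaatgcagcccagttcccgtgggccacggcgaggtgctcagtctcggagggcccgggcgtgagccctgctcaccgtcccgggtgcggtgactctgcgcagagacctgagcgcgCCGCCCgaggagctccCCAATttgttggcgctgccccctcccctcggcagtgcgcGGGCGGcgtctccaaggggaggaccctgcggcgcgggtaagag

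The start windows of 4 further collagens that were higher on DKO are shown beside them to compare the letters around their starts. They lie at chr6:4505368-4505667 (Col1a2, plus strand), chr1:45311288-45311587 (Col3a1, plus strand), chr10:76725995-76726294 (Col6a1, minus strand) and chr10:77166481-77166780 (Col18a1, minus strand, 1 of 2 windows).
Col1a2: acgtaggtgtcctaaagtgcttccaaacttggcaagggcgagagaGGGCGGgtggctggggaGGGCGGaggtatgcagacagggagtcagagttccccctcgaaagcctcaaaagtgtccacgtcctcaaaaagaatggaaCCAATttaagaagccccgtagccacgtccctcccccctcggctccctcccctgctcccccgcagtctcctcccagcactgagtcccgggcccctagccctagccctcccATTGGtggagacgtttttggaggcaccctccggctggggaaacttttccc
Col3a1: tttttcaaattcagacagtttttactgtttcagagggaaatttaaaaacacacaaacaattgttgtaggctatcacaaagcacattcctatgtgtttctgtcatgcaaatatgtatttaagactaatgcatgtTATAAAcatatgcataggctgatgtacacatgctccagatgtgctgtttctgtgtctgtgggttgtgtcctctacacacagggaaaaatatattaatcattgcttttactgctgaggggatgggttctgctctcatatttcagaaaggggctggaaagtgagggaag
Col6a1: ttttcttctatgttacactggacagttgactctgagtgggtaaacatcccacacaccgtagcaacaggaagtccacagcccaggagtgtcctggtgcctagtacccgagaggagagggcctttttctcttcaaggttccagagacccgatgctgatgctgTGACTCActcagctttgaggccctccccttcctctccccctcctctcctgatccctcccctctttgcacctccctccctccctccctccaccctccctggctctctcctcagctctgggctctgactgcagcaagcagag
Col18a1: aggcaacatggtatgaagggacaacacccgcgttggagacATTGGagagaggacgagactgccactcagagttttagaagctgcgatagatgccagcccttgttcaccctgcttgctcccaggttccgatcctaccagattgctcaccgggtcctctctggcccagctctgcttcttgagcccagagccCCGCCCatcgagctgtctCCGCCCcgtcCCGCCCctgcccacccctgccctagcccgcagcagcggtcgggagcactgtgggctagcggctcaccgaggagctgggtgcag

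Within each of these 6 windows no matches overlap, and the windows differ in make-up. The 1 GC box match of Col4a1 lies in the 78 shared bases and is the same site as a match marked in Col4a2. Col4a1 and Col4a2 have a GC content of 74.0% and 73.7% and hold 37 and 33 CpG sites, whereas Col3a1 has 37.7% and 0 CpG sites and is the only 1 of these 6 with a TATAAA match. Windows of Col15a1 and Col6a3, also higher on DKO, and the second Col18a1 window hold 0 matches to the 4 motifs and are not printed. Windows were at hand for 35 of the 44 collagen genes. Of these 35 genes, 22 (62.9%) held GGGCGG, against 38.2% of all 27025 genes with a window. The GC box letters were held by 3 of the 5 with a window among the 7 collagen genes 1.5-fold above the single deletions and by 19 of the 30 other collagen genes. Among these 3, Col4a1 holds only the site that it shares with Col4a2. CCAAT was held by 13 (37.1%, against 41.1% of all genes), TATAAA by 5 (14.3%, against 15.7%), and TGANTCA by 1, Col6a1 (2.86%, against 8.97%). A match describes letters only. Collagen genes next to each other in the RefSeq order of coding genes gave differences from WT of 1.002 and 0.94 for Col4a1 and Col4a2, 0.74 and 0.62 for Col3a1 and Col5a2, and 0.47 and 0.59 for Col6a2 and Col6a1. The neighbours Col4a3 and Col4a4 gave -0.16 and -0.01, and Col4a5 and Col4a6 0.04 and 0.22. Col9a1 and Col19a1 gave 0.31 and 0.03, and the row of Col6a6, Col6a5 and Col6a4 gave -0.21, -0.04 and 0.31.

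**Figure D2:**
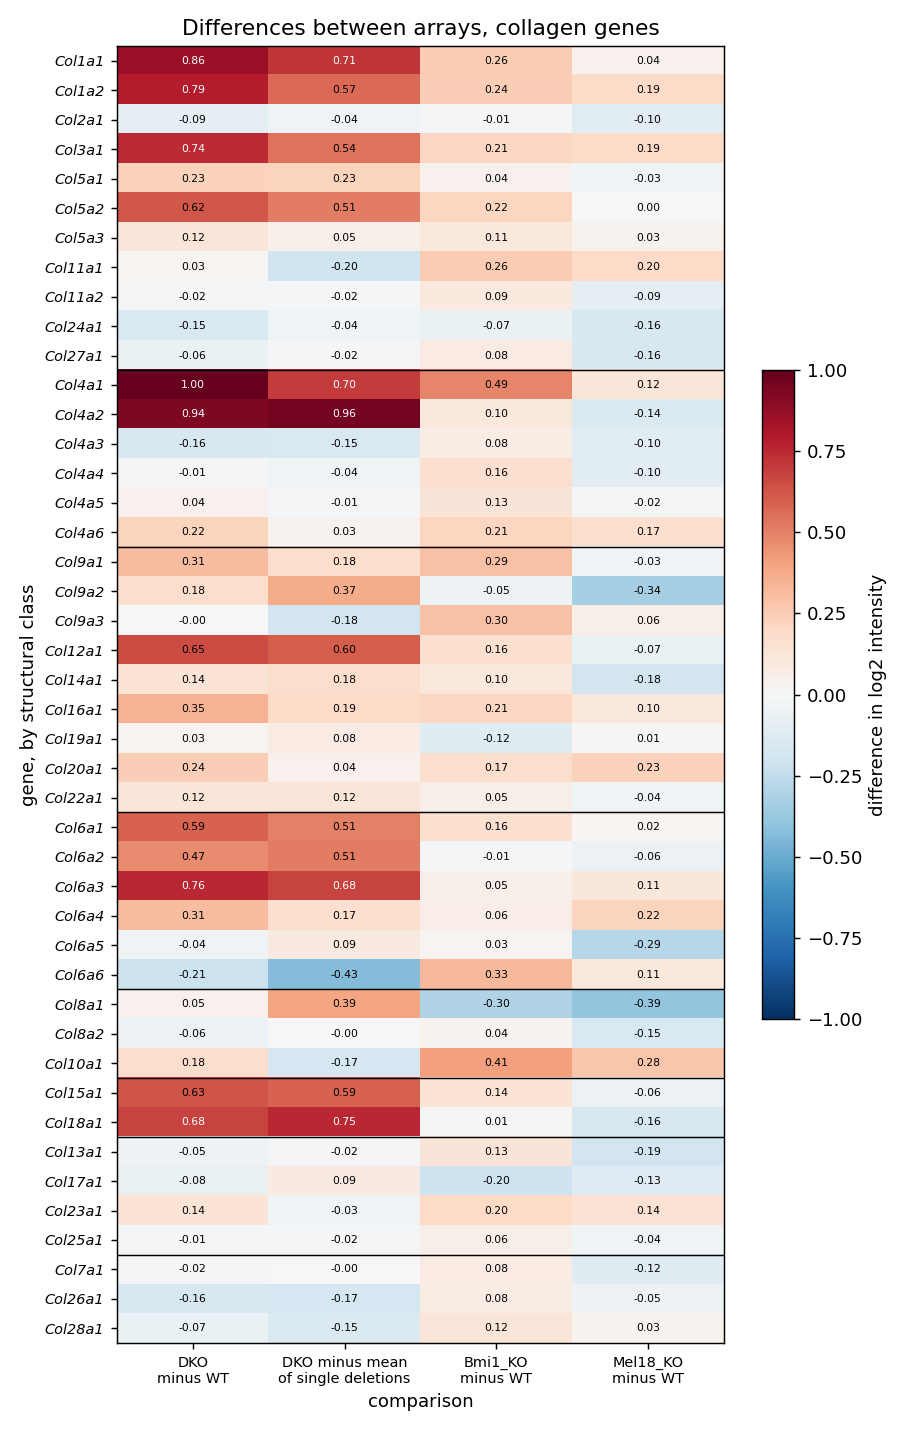
Differences in log2 intensity for the 44 collagen genes (rows, by structural class) in 4 comparisons (columns), printed in each cell and coloured between -1 and 1. The first and second columns hold the larger values, up to 1.002 for Col4a1, and the columns for Bmi1_KO and Mel18_KO against WT stay between -0.39 and 0.49.

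Type VI collagen is assembled from the chains of Col6a1, Col6a2 and Col6a3 in most tissues, and DKO was the highest array for all 3 genes. Col6a1 and Col6a3 were at least 1.5-fold above WT, Col6a3 was also above the single deletions by that much, and Col6a2 reached 1.5-fold in neither comparison. Col6a1 had 7.43 in DKO, 6.997 in Bmi1_KO, 6.86 in Mel18_KO and 6.84 in WT. For Col6a2 the arrays gave 7.38 in DKO, 6.90 in Bmi1_KO, 6.85 in Mel18_KO and 6.91 in WT. Col6a3, whose long chain carries most of the filament's globular domains, gave 7.50 in DKO, 6.79 in Bmi1_KO, 6.86 in Mel18_KO and 6.75 in WT. On the 3 other arrays each of these genes varied little, over ranges of 0.16, 0.06 and 0.11, and DKO lay 0.44, 0.47 and 0.64 above the highest of them. Col6a3 was 1.69-fold above WT and 1.6-fold above the single deletions. Col6a1 and Col6a2 differed from WT by 0.59 and 0.47 and from the single deletions by 0.51 and 0.51.

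The later type VI genes, whose chains can take the place of the Col6a3 chain, were not 1.5-fold apart in either comparison. Col6a4 had 6.48 in DKO, 6.23 in Bmi1_KO, 6.39 in Mel18_KO and 6.17 in WT, a difference from WT of 0.31. Col6a6 was lowest on DKO, at 6.50 in DKO, 7.04 in Bmi1_KO, 6.82 in Mel18_KO and 6.71 in WT, a difference of -0.43 between DKO and the single deletions. It had 2 probe sets, and the dimmer one, between 4.62 and 4.84 on the 4 arrays, was also lowest on DKO. Col6a5 read under 6 on all 4 arrays.

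Both multiplexins, which sit where basement membrane meets connective tissue, were higher on DKO. Col18a1, whose chain releases the fragment endostatin, had 7.86 in DKO, 7.19 in Bmi1_KO, 7.02 in Mel18_KO and 7.18 in WT. Col15a1, a related chain found around vessels and muscle, had 6.93 in DKO, 6.43 in Bmi1_KO, 6.24 in Mel18_KO and 6.30 in WT. Their differences between a single deletion and WT ran from -0.16 to 0.14, and DKO stood clear of all 3 other arrays. Col18a1 was 1.6-fold above WT (0.68) and 1.68-fold above the single deletions (0.75), and Col15a1 differed by 0.63 and 0.59.

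Among the FACIT genes, Col12a1 stood out. Its product decorates type I fibrils, and it had 6.76 in DKO, 6.28 in Bmi1_KO, 6.04 in Mel18_KO and 6.11 in WT, 1.57-fold above WT and 1.52-fold above the single deletions. Col16a1, a minor partner of fibrils, had 6.83 in DKO, 6.69 in Bmi1_KO, 6.58 in Mel18_KO and 6.48 in WT, and Col14a1, another fibril partner, 6.16 in DKO, 6.13 in Bmi1_KO, 5.84 in Mel18_KO and 6.02 in WT. Their differences from WT were 0.35 and 0.14, within the spread of a pair of arrays.

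Chains of type IX, a cartilage collagen, differed from WT on DKO by less than the 0.40 given above. Col9a2 and Col9a3 differed by 0.18 and -0.003 from WT, and by 0.37 and -0.18 from the single deletions. The 0.40 is for a pair of arrays and does not apply to the mean of the single deletions. Col9a2 had 7.30 in DKO, 7.08 in Bmi1_KO, 6.79 in Mel18_KO and 7.12 in WT, highest on DKO and lowest on Mel18_KO. Col9a3 had 6.72 in DKO, 7.02 in Bmi1_KO, 6.78 in Mel18_KO and 6.72 in WT, highest on Bmi1_KO and level between DKO and WT. Col20a1 gave 6.42 in DKO, 6.35 in Bmi1_KO, 6.40 in Mel18_KO and 6.17 in WT, and Col22a1, found at muscle-tendon junctions, 6.52 in DKO, 6.45 in Bmi1_KO, 6.35 in Mel18_KO and 6.40 in WT. Neither of these differed from WT by 1.5-fold on DKO (0.24 and 0.12).

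The transmembrane and epithelial anchoring collagens were level. Col17a1, a hemidesmosome protein of basal epithelial cells, had 6.36 in DKO, 6.23 in Bmi1_KO, 6.31 in Mel18_KO and 6.44 in WT. Col7a1, which forms the anchoring fibrils under stratified epithelium, had 6.80 in DKO, 6.91 in Bmi1_KO, 6.70 in Mel18_KO and 6.82 in WT. Col13a1, a transmembrane collagen of cell adhesions, had 6.49 in DKO, 6.67 in Bmi1_KO, 6.35 in Mel18_KO and 6.54 in WT. DKO was highest for none of these 3. Col23a1, a transmembrane collagen, read 6.35 in DKO, 6.41 in Bmi1_KO, 6.35 in Mel18_KO and 6.21 in WT, and Col26a1, a short collagen, 6.83 in DKO, 7.07 in Bmi1_KO, 6.94 in Mel18_KO and 6.99 in WT. Their differences from WT were 0.14 and -0.16. Col8a1, a network-forming chain of vessel walls, split the arrays another way, with 6.40 in DKO, 6.05 in Bmi1_KO, 5.96 in Mel18_KO and 6.36 in WT: DKO and WT were close together and both single deletions lower.

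The 12 collagen genes with means under the floor ranged from 4.73 to 6.07 over the 4 arrays. Their differences from WT on DKO ran from -0.16 to 0.31, and those from the single deletions from -0.17 to 0.18. None of the 12 was 1.5-fold apart in any comparison made here. At such intensities a probe set may read mostly background. The 12 were Col24a1, the 4 type IV genes from Col4a3 to Col4a6, Col9a1, Col19a1, Col6a5, Col8a2, Col10a1, Col25a1 and Col28a1.

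The separation of DKO was also described without a threshold on fold. DKO was the highest array for 21 of the 32 analysed collagen genes, against 34.1% of all analysed genes. For 13 of the 32 the step between DKO and the next array was wider than the whole range of the other 3 arrays, against 20.0% of all genes. These 13 were Col1a1, Col1a2, Col3a1, Col5a1, Col5a2, Col4a1, Col4a2, Col6a1, Col6a2, Col6a3, Col12a1, Col15a1 and Col18a1. Col5a2 among the 13, and also Col14a1 among the 21, passed the floor only with the DKO array in the mean. They include every analysed gene that was 1.5-fold above WT. Centring each array on its median left 17 of 32 with DKO highest, against 28.3% of all genes, and 14 of 32 with the wide step, against 15.5%.

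**Figure D3:**
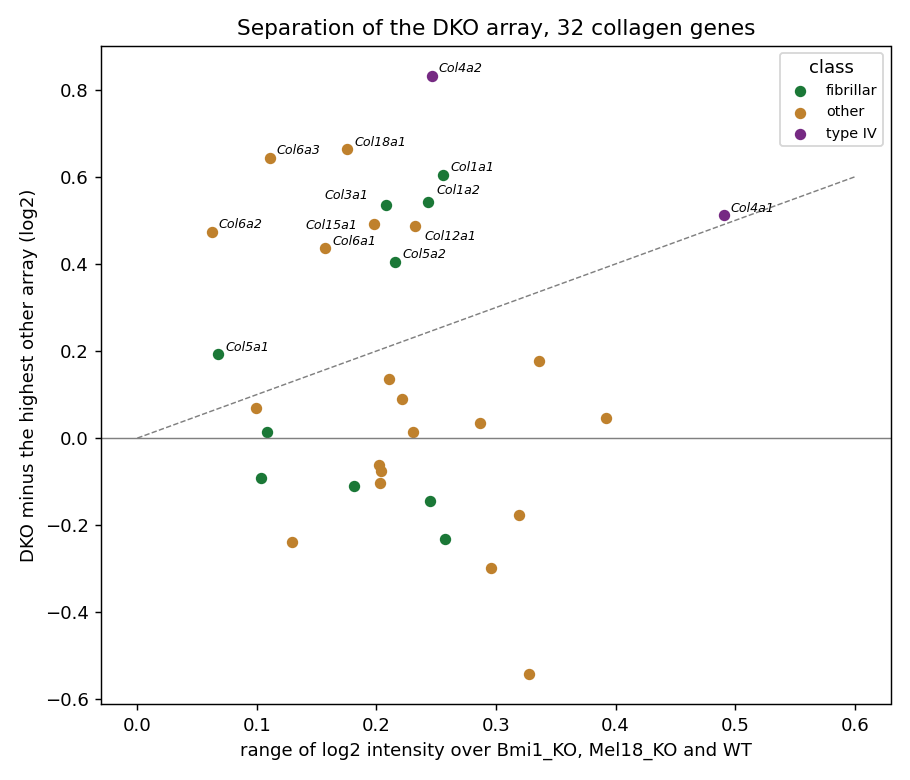
For each of the 32 analysed collagen genes, the difference between DKO and the highest other array (vertical axis, log2) against the range of the other 3 arrays (horizontal axis, log2), coloured by class, with a dashed line where both are equal. The 13 labelled genes lie above the line, Col4a2 highest at 0.83 and Col4a1 nearest the line at 0.51 against 0.49.

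Collagen genes differed little between the single deletions and WT. At 2-fold 0 of 32 were higher or lower on Bmi1_KO, where 0.55% and 0.262% of all genes were, and 0 on Mel18_KO, where 0.127% and 0.753% were. On Bmi1_KO 0 of 32 were 1.5-fold above WT and 0 below, where 1.96% and 1.35% of all genes were. On Mel18_KO the same counts were 0 and 0, where 1.18% and 2.09% of genes were. The widest differences were Col4a1 on Bmi1_KO (0.49) and Col8a1 on Mel18_KO (-0.39). Small differences on Bmi1_KO leaned one way: 27 of 32 genes were above WT by any amount, against 45.7% of all genes, with a median of 0.11, and after centring each array on its median they were 22 of 32, against 30.0%, with a median of 0.03. Bmi1_KO was also above Mel18_KO for 28 of 32, against 42.2% of all genes, with a median of 0.13, and after centring it was above for 17 of 32, against 22.3% of all genes, with a median of 0.01, a step that moved the median over all genes between these arrays to -0.16, against -0.04 before. Between these arrays 0 of 32 were 1.5-fold higher on Bmi1_KO and 0 lower, where 3.09% and 1.25% of genes were. Mel18_KO was above WT for 15 of 32, against 51.6% of all genes. All 3 comparisons with WT share the WT array. Apart from Col4a1 on Bmi1_KO, the differences of the 32 genes on a single deletion array lie within the 0.40 given above for a pair of arrays. The outlying DKO array enters every contrast behind that value. Over all analysed genes the spread (scaled median absolute deviation) was 0.19 for Bmi1_KO minus WT and 0.22 for Mel18_KO minus WT. Some collagen genes exceeded it, such as Col6a6 on Bmi1_KO (0.33) and Col8a1 on Mel18_KO (-0.39). With 1 array for each genotype, the differences describe these arrays and no order of genotypes.

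Genes that build collagen molecules were mixed on DKO. At 1.5-fold, 13.1% of all analysed genes were above the single deletions and 19.7% below. Against WT the shares were 13.5% and 20.9%. These shares apply to the counts of every list below. Of 18 analysed genes of hydroxylation, folding and export, 6 were at least 1.5-fold above the single deletions and 2 below, and the counts against WT were also 6 and 2. P4ha1, a catalytic subunit of prolyl 4-hydroxylase, which makes the triple helix stable, had 9.50 in DKO, 7.85 in Bmi1_KO, 8.50 in Mel18_KO and 8.65 in WT, 2.5-fold above the single deletions. Mia2, an export factor of the endoplasmic reticulum, had 10.50 in DKO, 9.07 in Bmi1_KO, 9.08 in Mel18_KO and 8.84 in WT, a difference of 1.43. Crtap, part of the prolyl 3-hydroxylation complex, went the other way, with 7.12 in DKO, 8.11 in Bmi1_KO, 8.30 in Mel18_KO and 8.33 in WT (-1.09). Plod2, a lysyl hydroxylase that prepares crosslinks, read above the floor on DKO alone, with 6.16 in DKO, 4.95 in Bmi1_KO, 4.87 in Mel18_KO and 4.92 in WT. Higher and lower genes thus stood side by side in this list, whose median was 0.24 against the single deletions.

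Of 7 analysed genes of procollagen processing and crosslinking, 2 were 1.5-fold above the single deletions and 1 below, and against WT 2 and 0. Sparc, a collagen-binding matrix protein, had 10.12 in DKO, 9.08 in Bmi1_KO, 8.34 in Mel18_KO and 8.70 in WT, 2.66-fold above the single deletions. Pcolce2, which enhances cleavage of the procollagen end, differed from the single deletions by -1.25, at 5.66 in DKO, 7.07 in Bmi1_KO, 6.75 in Mel18_KO and 6.003 in WT. Against WT its difference was -0.35, and both single deletions read above WT.

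Fibril partners are proteins that bind or accompany collagen fibrils. Among 7 analysed fibril partners 6 were at least 1.5-fold above the single deletions and 1 below, and against WT 6 were above and 0 below. Dcn, the small proteoglycan decorin that binds type I fibrils, had 10.46 in DKO, 9.88 in Bmi1_KO, 7.79 in Mel18_KO and 8.78 in WT. Bgn, the related biglycan, had 8.80 in DKO, 7.51 in Bmi1_KO, 7.28 in Mel18_KO and 7.26 in WT. Tgfbi, an adhesion protein of the matrix, and Thbs1, thrombospondin 1, were 1.73 and 1.34 above the single deletions. Dcn, Tgfbi and Thbs1 were also high on Bmi1_KO and low on Mel18_KO, at 1.10, 0.95 and 1.41 against WT on Bmi1_KO and -0.99, -0.88 and -1.04 on Mel18_KO. Between Bmi1_KO and Mel18_KO, Bgn differed by 0.23 and the analysed collagen genes by -0.16 to 0.37.

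In the basement membrane list 4 of 12 analysed genes were 1.5-fold above the single deletions and 0 below, and against WT 6 and 0. Nid1, nidogen, which links laminin to type IV collagen, had 8.69 in DKO, 7.46 in Bmi1_KO, 7.61 in Mel18_KO and 7.08 in WT. The laminin chains Lama3, of epithelial basement membranes, and Lamb1 were 1.06 and 1.01 above the single deletions, while the proteoglycan Hspg2 was level (-0.07). Of 5 analysed collagen receptors 3 were 1.5-fold above the single deletions and 0 below, and 2 and 0 against WT. Ddr2, a receptor kinase for fibrillar collagen, had 7.12 in DKO, 6.22 in Bmi1_KO, 5.93 in Mel18_KO and 5.80 in WT, and passed the floor only with the DKO array in the mean. The same holds for P3h2 and Lama1 in the lists above and for Pi16, Notch3 and Adgre1 among the cell type markers below, so counts over analysed genes include genes that a high DKO value let in. Lair1, an inhibitory collagen receptor of leukocytes, had a mean under the floor but read 6.96 in DKO, 5.21 in Bmi1_KO, 4.90 in Mel18_KO and 5.36 in WT. Collagen-cleaving enzymes were 1.5-fold above the single deletions in 4 of 5 analysed cases and below in 0. Against WT these counts were also 4 and 0. Mmp8, the neutrophil collagenase, had 11.04 in DKO, 9.70 in Bmi1_KO, 5.69 in Mel18_KO and 8.38 in WT. Mmp9 had 9.89 in DKO, 9.34 in Bmi1_KO, 7.25 in Mel18_KO and 8.16 in WT, and Mmp13, another collagenase, 9.31 in DKO, 9.31 in Bmi1_KO, 7.13 in Mel18_KO and 7.46 in WT. All 3 were much lower on Mel18_KO than on Bmi1_KO, and Mmp13 was no higher on DKO than on Bmi1_KO, so its 1.09 over the mean of the single deletions comes from Mel18_KO.

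**Figure D4:**
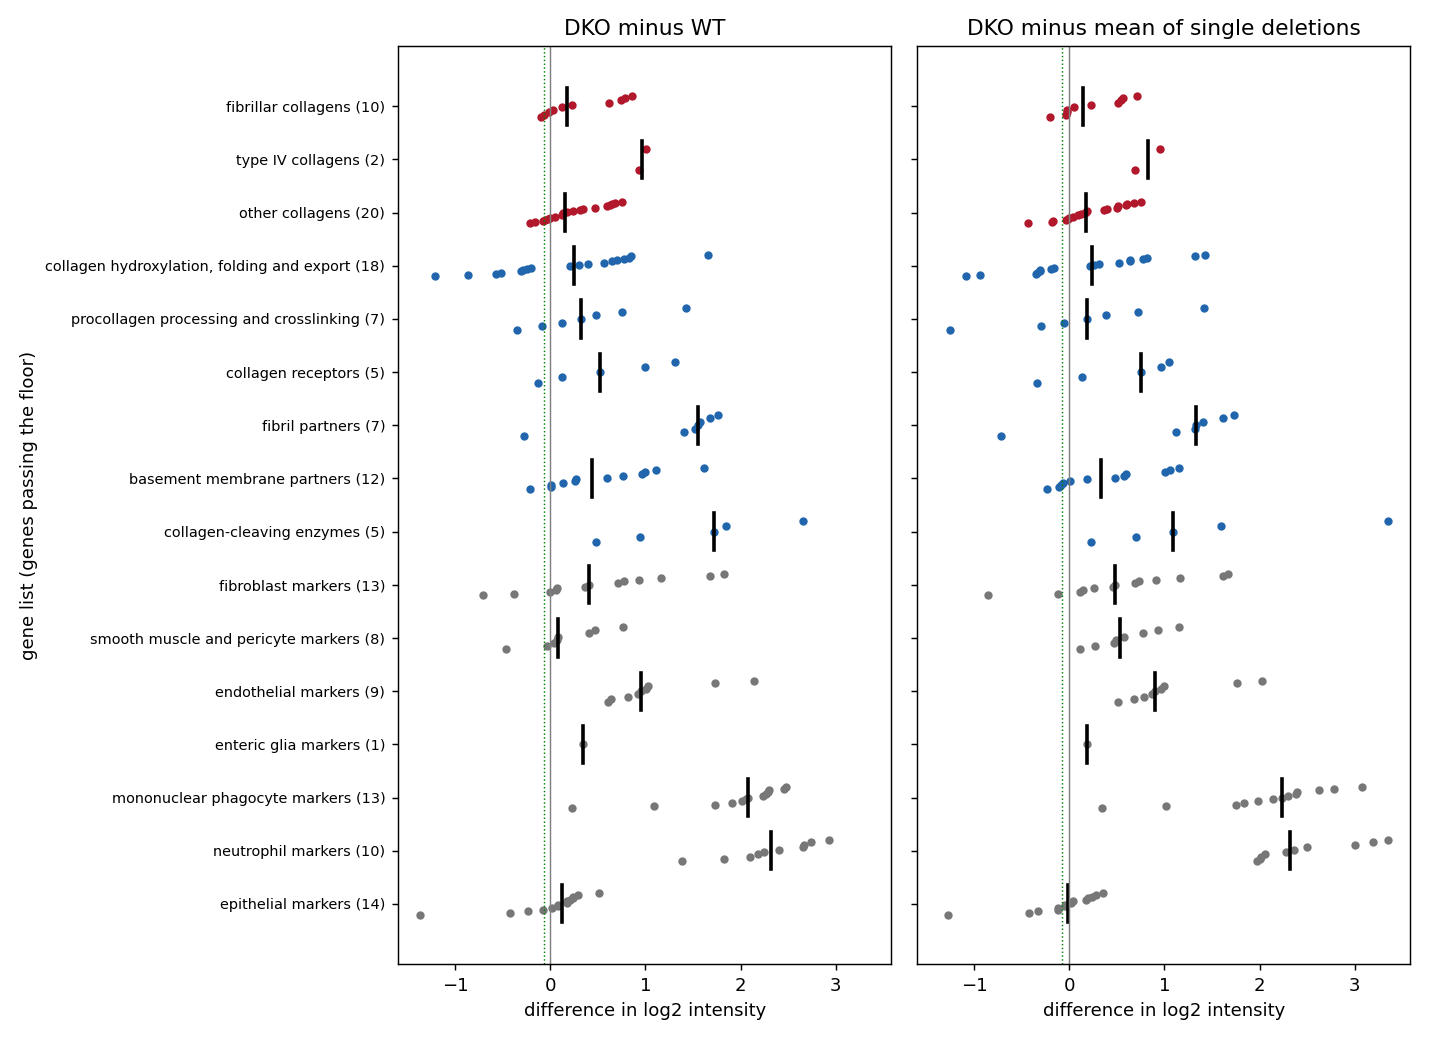
Differences in log2 intensity (horizontal axes) for analysed genes of the collagen classes (red), 6 collagen-related lists (blue) and 7 cell type lists (grey), for DKO minus WT (left) and DKO minus the mean of the single deletions (right). Points are genes, black bars are list medians, and the dotted line is the median over all analysed genes; fibrillar and other collagens have medians under 0.2, while mononuclear phagocyte and neutrophil markers have medians above 2.

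Markers of several other cell types were also higher on DKO. The shares over all analysed genes at 1.5-fold were again 13.1% above and 19.7% below the single deletions. Against WT they were 13.5% and 20.9%. Of 13 analysed fibroblast markers 6 were at least 1.5-fold above the single deletions and 1 below, with a median of 0.48. Against WT the counts were also 6 and 1, with a median of 0.41. The summed intensity of 21 measured genes was 3837 in DKO, 2745 in Bmi1_KO, 1806 in Mel18_KO and 2133 in WT. The fibroblast receptor gene Pdgfra had 7.81 in DKO, 7.07 in Bmi1_KO, 7.06 in Mel18_KO and 7.03 in WT, a difference from WT of 0.78, and Pdpn had 8.97 in DKO, 7.72 in Bmi1_KO, 6.88 in Mel18_KO and 7.15 in WT, a difference of 1.82. Fbln1, a matrix protein gene, was the 1 below, with 7.29 in DKO, 8.002 in Bmi1_KO, 8.29 in Mel18_KO and 7.998 in WT. The 8 fibroblast markers with means under the floor were Lum, Dpt, Fap, Mfap5, Clec3b, Osr1, Twist1 and Prrx1. Of these Dpt, the gene of dermatopontin, read above 6 on DKO, with 6.90 in DKO, 5.57 in Bmi1_KO, 5.50 in Mel18_KO and 5.78 in WT, and Fap had 5.80 in DKO, 5.005 in Bmi1_KO, 4.71 in Mel18_KO and 4.80 in WT, while the other 6 were under 6 on all 4 arrays and differed from the single deletions by -0.17 to 0.34. Smooth muscle and pericyte markers were above the single deletions by a median of 0.53 (3 of 8 at least 1.5-fold above, 0 below). Against WT their median was 0.08 (1 above, 0 below), and their summed intensity was 1533 in DKO, 1034 in Bmi1_KO, 922 in Mel18_KO and 1214 in WT. Endothelial markers were at least 1.5-fold above WT in 9 of 9 analysed cases and above the single deletions in 8 of 9, with a median of 0.90 and sums of 2296 in DKO, 1220 in Bmi1_KO, 1058 in Mel18_KO and 1072 in WT. Pecam1, an adhesion protein of vessels, had 7.93 in DKO, 6.38 in Bmi1_KO, 5.96 in Mel18_KO and 6.19 in WT.

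Leukocyte markers were further apart. Mononuclear phagocyte markers were 1.5-fold above the single deletions in 12 of 13 analysed cases (median 2.23) and above WT in 12 of 13 (median 2.08), with sums of 15841 in DKO, 5552 in Bmi1_KO, 3085 in Mel18_KO and 4394 in WT. Neutrophil markers were above the single deletions in 10 of 10 (median 2.32) and above WT in 10 of 10 (median 2.32), with sums of 23548 in DKO, 13084 in Bmi1_KO, 1951 in Mel18_KO and 5349 in WT. Bmi1_KO was above Mel18_KO by a median of 2.60 for the neutrophil markers and of 0.13 for the analysed collagen genes. It was above for 28 of these 32 collagen genes, against 42.2% of all genes. The summed intensity of the 44 collagen genes was 5002 in DKO, 4289 in Bmi1_KO, 3892 in Mel18_KO and 3934 in WT. That sum includes the 12 genes under the floor. Enteric glia markers stayed low: 1 of 5 measured genes passed the floor, with sums of 194 in DKO, 209 in Bmi1_KO, 182 in Mel18_KO and 188 in WT. Epithelial markers had a median of -0.01 against the single deletions, with 0 of 14 above and 1 below, and 0.13 against WT, with the same counts, and sums of 57395 in DKO, 56277 in Bmi1_KO, 58156 in Mel18_KO and 53943 in WT. The 1 below was Cdx1, with 8.21 in DKO, 9.40 in Bmi1_KO, 9.57 in Mel18_KO and 9.57 in WT. Its differences were -1.27 against the single deletions and -1.36 against WT. Squamous markers were 1.5-fold above the single deletions in 2 of 6 analysed cases and below in 3 (median -0.42), and above WT in 2 and below in 4 (median -1.25), with sums of 1103 in DKO, 1175 in Bmi1_KO, 783 in Mel18_KO and 1560 in WT. Dcn, Lum and Fap were on both the fibroblast list and a collagen-related list, and Mmp8 was on both the neutrophil list and the list of collagen-cleaving enzymes. The part of these cell types in the collagen differences was not tested.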

How the data were processed

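The authors deposited linear intensities for each probe set of the Affymetrix Mouse Gene 1.0 ST array. The submitters' processing notes name Expression Console and RMA, with no version or annotation release. RMA normalizes arrays to each other, so a difference shared by most genes is reduced. Some offset remained. The median intensity over all probe sets was 72.96 in DKO, 72.91 in Bmi1_KO, 67.04 in Mel18_KO and 69.22 in WT. Of 35556 probe sets, 21789 had 1 symbol, 1621 several (not named) and 12146 none listed. The brightest set stood for a gene; 2 collagen genes had 2 sets. Gene IDs of 44 of 44 members were found in the RefSeq table with the same symbol.

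The log2 of the deposited intensities was taken here. Log2 differences were described by folds (2 and 1.5) and medians beside all 11815 analysed genes. Arrays have no counts, so precision is limited by their number. Collagen genes with a mean of at least 6 were named with every value, and in the other lists up to 4 genes at least 2-fold apart between DKO and the single deletions. Epcam, Krt8, Pdgfra, Fbln1, Hspg2 and the dim fibroblast markers other than Dpt were named after their values were seen. The members and lists were chosen with earlier results of these data known. Alternative floors, scalings and thresholds are given with the closing section. Promoter sequences are from RefSeq. The counting was checked on simulated data. Python 3.11.15, pandas 2.3.3, R 4.3.3 and limma 3.58.1 (cyclic loess) were used.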

Additional observations from a re-analysis of the deposited data

How the results depend on the processing

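Alternatives were no floor, a floor of 8, a floor of 6 on the highest array, median centring, cyclic loess, log2 of the value plus 32, averaging probe sets within a gene and a threshold of 1.5-fold. The count of 1 collagen gene 2-fold above WT on DKO, which rests on Col4a1 at 1.002, became 0 with a floor of 8, with median centring and with 32 added, and 11 at 1.5-fold. The count of 0 against the single deletions became 7 at 1.5-fold. At 1.5-fold the counts against WT and the single deletions were 7 and 5 after median centring (11.6% and 11.7% of all genes), 10 and 9 after cyclic loess (16.6% in each), and 6 and 3 with 32 added (11.7% and 11.6%), which shrinks differences of dim genes by construction. With 32 added, 3 of 32 is not above the share over all genes. A floor of 8 left only Col1a1, so the fibrillar medians became 0.86 against WT and 0.71 against the single deletions, and there is no value for the type IV and other classes. Without a floor the type IV medians became 0.13 and 0.010, since 4 dim genes entered. The 7 genes at least 1.5-fold above both WT and the single deletions were above both under each alternative that kept them, between 0.44 and 1.04. They were picked on these same arrays for being higher, so their sign after rescaling is no independent support. The other counts and medians (131 values) stayed within 1.5 times or within the spread between arrays. This is a weak check. Most medians are smaller than that spread, so they could reach 0 or change sign and still count as unchanged, and most of the counts were 0. No paired analysis was possible because each genotype had 1 array, and for the same reason no replicate could be left out. Dim signal limits the 12 genes under the floor. It also limits analysed genes close to the floor, such as Col11a1 (5.98 to 6.24 on the 4 arrays) and Col14a1 (5.84 to 6.16). A level reading of such genes may be mostly background.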
